A study of Saccharomyces cerevisiae with 5 samples.

Results

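The 45 genes described here encode the parts of the nuclear pore, the transport receptors that carry cargo through it and the proteins that run the Ran cycle in the budding yeast Saccharomyces cerevisiae. They were chosen by name, from a list of nucleoporins, karyopherins and Ran cycle proteins, among 5539 named genes on the arrays. All 45 had spots on both platforms and a value on every array. On each of 5 two-colour arrays, RNA that came down with zz-tagged Yra1 was compared with RNA that came down with zz-tagged Mex67, so every sample carried a tagged export protein and no untagged strain was compared. The arrays form 1 group, replicates 1 to 5, and replicate 1 was on another platform. Strain, growth conditions and dyes stay unstated in the labels. Unless stated otherwise, a p-value here comes from the 4 arrays other than replicate 1. Separate cultures are not mentioned either, so it reflects how far those arrays scatter, and that scatter may be technical.

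Values below are log2 of the deposited ratio relative to the median of the array. The labels place Yra1 RNA in channel 1 and Mex67 RNA in channel 2, but they do not say which of them is the numerator of the ratio. "Higher" and "lower" therefore apply to the ratio as deposited, and cannot be read as more RNA with Yra1 or more with Mex67. A ratio says nothing of how abundant a transcript was. A mean is over replicates 2 to 5, with the SD over these 4 arrays.

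The nuclear pore complex is a ring of nucleoporins set in the nuclear envelope. Scaffold nucleoporins build its rings, membrane nucleoporins anchor it, and nucleoporins with phenylalanine-glycine (FG) repeats fill its channel. Karyopherins bind cargo and FG repeats and take their direction from the small GTPase Ran, which is kept in the GTP form in the nucleus and in the GDP form in the cytoplasm. Mex67, the main mRNA export receptor, is not a karyopherin and does not use the Ran gradient directly, while Yra1 is an adaptor that helps to bring Mex67 to mRNA. The genes here are thus genes whose protein products act in transport, and the arrays measured how their own mRNAs were recovered.

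The mRNAs of the transport machinery lay around the middle of the arrays, with 22 means above 0 and 23 below it. None passed the test over all genes, limma's moderated test of the 4 ratios against 0 with Benjamini-Hochberg adjustment, in which 0% of all 5539 genes passed and the smallest adjusted p among the 45 was 0.834. At an unadjusted p under 0.05 there was 1 member, the import receptor gene KAP104, on the lower side (2.22% of members), where 5.42% of all genes stood, 3.99% lower and 1.43% higher. The share of members was thus not above that of all genes. The means ran from -1.32 for NUP2 to 0.80 for NUP1, their median was -0.03, and the median over all genes was -0.02. The mean was within 0.5 log2 units of 0 for 34 members, between 0.5 and 1 for 9, and at least 1 for 2, NUP2 and KAP104, which is 4.44% of members beside 8.14% of all genes.

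The spread between arrays exceeded the size of the mean for 43 of the 45 genes. The SD of a member over the 4 arrays had a median of 0.87 log2 units and ran from 0.33 to 2.60, while the median SD over all genes was 0.77. The moderated standard error of a mean ran from 0.32 to 0.89. Just 2 members, NUP49 and KAP114, had the same sign on all 4 arrays, and both were lower. This is 4.44% of members, where 14.2% of all genes had 1 sign. With replicate 1 included, NUP49 alone kept 1 sign (2.22%), beside 6.61% of all genes. A further 20 genes had 3 arrays on one side of 0, and 23 were split evenly.

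**Figure D1:**
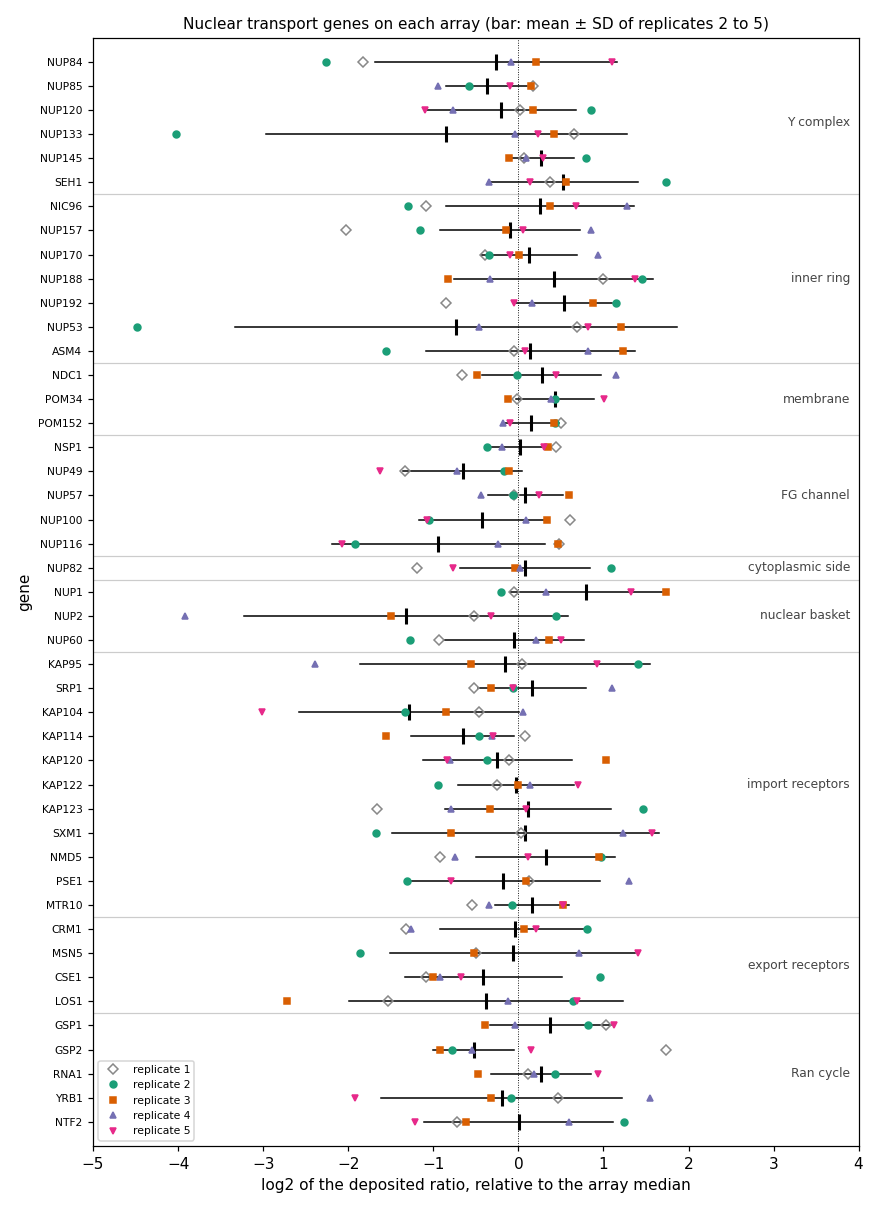
Log2 of the deposited ratio relative to the array median (horizontal axis) for each of the 45 genes (rows, grouped by role), with 1 marker per array and a black bar for the mean ± SD of replicates 2 to 5. For 43 genes the markers of replicates 2 to 5 lie on both sides of 0, and the far markers at -4.02 (NUP133), -4.48 (NUP53) and -3.91 (NUP2) each come from 1 array.

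Taken array by array, the list stayed near the other genes. The median of the 45 genes minus the median of the other genes was 0.00 on replicate 1, and -0.09, -0.02, -0.07 and 0.15 on replicates 2 to 5. Over replicates 2 to 5 this was -0.01 ± 0.11 (SD, n = 4). Its sign was not the same on all arrays. The middle of the members was also about as wide as that of the other genes. Their interquartile range was 1.03 beside 1.04 on replicate 1. On replicates 2 to 5 it was 1.96 beside 1.62, 0.91 beside 0.91, 0.85 beside 1.02 and 1.01 beside 1.05.

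**Figure D2:**
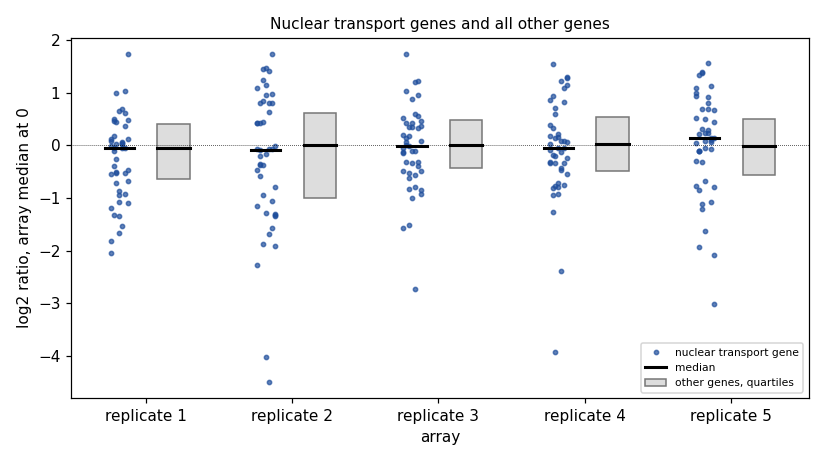
Log2 ratio on each array, with the array median at 0, for the 45 nuclear transport genes (blue points, thick line at their median) and for all other genes (grey box from the lower to the upper quartile, line at the median). The members' medians minus those of the other genes run from -0.09 to 0.15, and single members reach far below the boxes.

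The Y complex is the scaffold unit of the outer rings, and 4 of its 6 genes among the members had means below 0. NUP133 had the lowest, at -0.85 ± 2.12 (SD, n = 4). It stood at -4.02, 0.42, -0.04 and 0.24 on replicates 2 to 5 and at 0.66 on replicate 1. The mean thus rests on replicate 2, and without that array it was 0.21. NUP84, which gives the complex its other name, was at -2.26, 0.21, -0.09 and 1.10 on replicates 2 to 5 and at -1.82 on replicate 1, with a mean of -0.26. The low values of NUP84 came from replicates 1 and 2, and the other arrays were near or above 0. NUP85, NUP120, NUP145 and the beta-propeller gene SEH1 had means of -0.37, -0.21, 0.27 and 0.52. SEH1 was at 1.73 on replicate 2 and between -0.34 and 0.56 on the other 3 arrays.

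The inner ring genes encode adaptors and large scaffold proteins that link the outer rings, the channel and the membrane. Here 5 of 7 means were above 0, and the median of the 7 genes was at -1.16 on replicate 2 and at 0.82 on replicate 4. NUP53 was at -4.48, 1.21, -0.46 and 0.81 on replicates 2 to 5 and at 0.68 on replicate 1, a mean of -0.73 ± 2.60, the widest spread of all members. ASM4 encodes Nup59, the related partner of Nup53, and was at -1.56, 1.23, 0.82 and 0.07 on replicates 2 to 5, and at -0.05 on replicate 1. Both genes were lowest on replicate 2 and highest on replicate 3. NUP157 was at -1.16, -0.15, 0.86 and 0.05 on replicates 2 to 5 and at -2.03 on replicate 1. Its relative NUP170 was at -0.34, 0.00, 0.94 and -0.10 on these 4 arrays and at -0.39 on replicate 1. This pair was also lowest on replicate 2 and highest on replicate 4 among the 4 arrays. NIC96, the anchor of the channel nucleoporins, and the largest scaffold genes NUP188 and NUP192 had means of 0.25, 0.42 and 0.53, each within its spread of 1.10, 1.17 and 0.57.

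The 3 membrane nucleoporin genes among the members all had means above 0, each smaller than its spread, apart from any in the second list below. POM34 was at 0.43 ± 0.46 (SD, n = 4), NDC1, which is shared with the spindle pole body, at 0.27 ± 0.70, and POM152 at 0.14 ± 0.33, the narrowest spread of the list. The value of POM34 is uncertain, since on 3 of the 4 arrays both of its spots held a value identical to an adjacent spot.

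Among the FG nucleoporins of the channel, NSP1, NUP49 and NUP57 encode a trimer that sits at the centre. NSP1 was at -0.37, 0.35, -0.19 and 0.31 on replicates 2 to 5 and at 0.44 on replicate 1, on both sides of 0. NUP57 had a mean of 0.08 ± 0.44. NUP49 was at -0.17, -0.11, -0.72 and -1.62 on replicates 2 to 5 and at -1.34 on replicate 1. It was below 0 on all 5 arrays, with a mean of -0.65 ± 0.70 over the 4 and an adjusted p of 0.841 in limma. Its duplicate spots did not match on replicate 5, where they read -3.61 and 0.36. On replicate 1 they read -1.74 and -0.94. Without replicate 5 its mean was -0.33. With the local median removed, NSP1 was at -0.19, NUP57 at -0.23 and NUP49 at -0.74.

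NUP100 and NUP116 encode related FG nucleoporins with GLFG repeats. NUP116 was at -1.92, 0.46, -0.24 and -2.08 on replicates 2 to 5 and at 0.47 on replicate 1, with a mean of -0.94 ± 1.25. NUP100 was at -1.05, 0.34, 0.08 and -1.07 on these arrays and at 0.61 on replicate 1, a mean of -0.42 ± 0.74. Both were low on replicates 2 and 5 and above 0 on replicates 1 and 3. With the median of the surrounding spots removed, NUP116 was at 0.62 and NUP100 at 0.36, so the sign of both means turned.

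On the cytoplasmic side of the pore, NUP82 had a mean of 0.08 ± 0.76. The nuclear basket genes NUP1, NUP2 and NUP60 held the highest and the lowest mean of the list. NUP1, which binds the import receptor on the nuclear side, was at -0.20, 1.73, 0.33 and 1.33 on replicates 2 to 5 and at -0.05 on replicate 1, with a mean of 0.80 ± 0.89. That mean was 0.03 with the local median removed. On replicate 2 both spots of NUP1 held a value shared with an adjacent spot, and its mean was 1.14 with shared values left out. NUP2, a mobile nucleoporin that helps to release the importin alpha subunit, was at 0.45, -1.50, -3.91 and -0.32 on replicates 2 to 5 and at -0.52 on replicate 1. Its mean of -1.32 ± 1.91 rests on replicate 4, and on replicates 2 and 5 both of its spots held a value shared with an adjacent spot. NUP60 had a mean of -0.05 ± 0.82.

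Of the 11 import receptor genes, 5 had means above 0 and 6 below it. KAP104 encodes transportin, which brings the mRNA-binding proteins Nab2 and Hrp1 into the nucleus. It was at -1.34, -0.85, 0.06 and -3.02 on replicates 2 to 5 and at -0.46 on replicate 1. It was lower on 3 of the 4 arrays, with a mean of -1.29 ± 1.29. By limma's moderated test its p was 0.0397 before adjustment over all genes and 0.834 after it. Replicate 4 alone stood at about 0. No spot of KAP104 held a shared value, and with the local median removed its mean was -1.17, below 0 on all 4 arrays. The mean was -0.71 without replicate 5 and -0.62 with the sign of replicate 2 turned. Replicates 3 and 5 share a code in their titles, which was read here as a session, and with that pair averaged first the mean was -1.07 and the unadjusted p 0.0707.

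KAP114 encodes an importin for the TATA-binding protein and histones. It was at -0.46, -1.56, -0.31 and -0.30 on replicates 2 to 5 and at 0.07 on replicate 1. All 4 arrays of the main platform were below 0, with replicate 3 far from the others, a mean of -0.66 ± 0.61 and an adjusted p of 0.834 in limma. On each of these arrays 1 of its 2 spots held a shared value, and with the local median removed the mean was -0.21. The importin beta gene KAP95 was at 1.41, -0.56, -2.39 and 0.92 on replicates 2 to 5 and at 0.04 on replicate 1. SRP1, the importin alpha gene whose product works as a dimer with Kap95, was at -0.06, -0.32, 1.10 and -0.07 on these arrays and at -0.53 on replicate 1. The lowest array of KAP95, replicate 4, was the highest of SRP1.

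The other import receptor genes had means close to 0 beside their spread. KAP120 was at -0.25, KAP122 at -0.03, KAP123, a carrier of ribosomal proteins, at 0.11, and SXM1 at 0.08. NMD5 was at 0.32, PSE1 (Kap121) at -0.18 and MTR10, which imports the shuttling protein Npl3, at 0.16. Their SDs ran from 0.44 for MTR10 to 1.57 for SXM1. SXM1 was at -1.67 and -0.80 on replicates 2 and 3, and at 1.23 and 1.57 on replicates 4 and 5.

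All 4 export receptor means were below 0, though none by more than its spread. The median of the 4 genes was -1.20, 0.72, -0.76, -0.52 and 0.45 on replicates 1 to 5. CRM1, the receptor for proteins with leucine-rich export signals and for ribosomal subunits, was at 0.81, 0.07, -1.26 and 0.21 on replicates 2 to 5 and at -1.32 on replicate 1, a mean of -0.04 ± 0.87. The tRNA export receptor gene LOS1 was at 0.64, -2.73, -0.12 and 0.69 on replicates 2 to 5 and at -1.54 on replicate 1, with a mean of -0.38 ± 1.61. Its lowest value came from replicate 3, where its spots read -1.39 and -4.06. On replicate 1 they read -2.91 and -0.16. CSE1, which returns importin alpha to the cytoplasm, had a mean of -0.41 ± 0.92. It was at 0.95 on replicate 2, between -1.01 and -0.68 on replicates 3 to 5 and at -1.08 on replicate 1. However, all of its spots held shared values on all 4 arrays of the main platform. MSN5, which exports phosphorylated transcription factors, had a mean of -0.07 ± 1.44 and was at -0.50 on replicate 1. With the sign of replicate 2 turned, MSN5 was at 0.86 and the other 3 stayed below 0. With the local median removed MSN5 was at 0.08 and CSE1 at 0.01. The mean of LOS1 was 0.40 without replicate 3, and that of CRM1 was 0.36 without replicate 4.

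In the Ran cycle, GSP1 and GSP2 encode near-identical forms of Ran, RNA1 its GTPase activator, YRB1 a Ran-binding protein that assists Rna1, and NTF2 the carrier that returns Ran to the nucleus. GSP1 was at 0.81, -0.40, -0.04 and 1.12 on replicates 2 to 5 and at 1.03 on replicate 1, with a mean of 0.37 ± 0.71. GSP2 was at -0.78, -0.92, -0.55 and 0.15 on these arrays and at 1.73 on replicate 1, with a mean of -0.53 ± 0.48. GSP1 was thus above GSP2 on all 4 arrays of the main platform, by 0.90 ± 0.51 (SD, n = 4), and below it by 0.71 on replicate 1. On replicate 4 the spots of GSP2 read 0.24 and -1.34 and those of GSP1 -0.06 and -0.02. The order of the pair on that array thus depends on the GSP2 spot taken. On replicate 5 both spots of GSP2 held values shared with an adjacent spot. The exact sign-flip permutation test over the 4 arrays gave p = 0.125, the smallest it can give, and 0.375 adjusted over the 4 related pairs compared. With the local median removed GSP1 lay below GSP2, at -0.27 ± 0.45. Spots of near-identical genes can bind the same cDNA, so the values of this pair may not be separate measurements, which was not tested.

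RNA1 was at 0.43, -0.48, 0.18 and 0.93 on replicates 2 to 5 and at 0.11 on replicate 1, a mean of 0.27 ± 0.59. YRB1 was at -0.08, -0.32, 1.55 and -1.92 on replicates 2 to 5 and at 0.46 on replicate 1, with shared values at both spots on 2 arrays. NTF2 was at 1.24, -0.61, 0.60 and -1.21 on replicates 2 to 5 and at -0.72 on replicate 1, so its mean of 0.00 hid arrays on both sides. On replicate 2 its spots read 0.51 and 1.97, and the second held a shared value. With the local median removed NTF2 was at -0.76, with -0.45, -1.37, -0.02 and -1.19 on replicates 2 to 5. By limma's moderated test its p in that setting was 0.0356 before adjustment and 0.852 after it. With only the array median removed, each of the 5 Ran cycle genes was above 0 on some arrays and below it on others.

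The other 3 related pairs, tested in the same way as the Ran pair, also gave an adjusted exact permutation p of 0.375. NUP53 minus ASM4 was -0.87 ± 1.60 (SD, n = 4), NUP157 minus NUP170 was -0.22 ± 0.41, and NUP100 minus NUP116 was 0.52 ± 0.52. The last difference was above 0 on 3 of the 4 arrays, and at -0.27 ± 0.91 with the local median removed.

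Some members lay far from the median on a single array. Of the 225 member values over 5 arrays, 9 were at least 2 log2 units from 0 (4.0%), beside 5.69% of the values of all genes. All 9 were below 0, a side that held 4.25% of the values of all genes. Replicate 1 held 1 of them (1.62% of all genes there) and replicate 2 held 3 (13.6%). Replicate 3 held 1 (1.82%), replicate 4 held 2 (4.06%) and replicate 5 held 2 (7.31%). The members were not more often this far out than all genes, but several of these values were matched by both spots of the gene.

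On replicate 2 the spots of NUP133 read -4.03 and -4.02, and those of NUP53 read -4.35 and -4.61. On replicate 4 the spots of NUP2 read -3.74 and -4.09, and those of KAP95 read -2.33 and -2.45. On replicate 5 the spots of KAP104 read -2.80 and -3.23. Both spots of a gene lie side by side on the array, so their likeness does not separate a transcript from its place. With the local median removed, NUP133 was at -3.78, NUP53 at -3.02, NUP2 at -3.80, KAP95 at -2.85 and KAP104 at -2.66 on those arrays, and LOS1 was at -2.21 on replicate 3. The value of NUP53 had been -4.48, so its surroundings were low too, while those of NUP133 and NUP2 moved the value by less. For 2 others the surroundings were as low as the gene or lower: NUP84 on replicate 2, with spots at -2.06 and -2.47, was at 0.15 once the local median was removed, and NUP116 on replicate 5 was at 1.71. The ninth value was that of NUP157 on replicate 1, from 1 spot. On no other array were NUP133, NUP53, NUP2, KAP95, LOS1 or KAP104 as much as 2 log2 units from 0. On the other 4 arrays NUP133 lay between -0.04 and 0.66, and NUP53 between -0.46 and 1.21.

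**Figure D3:**
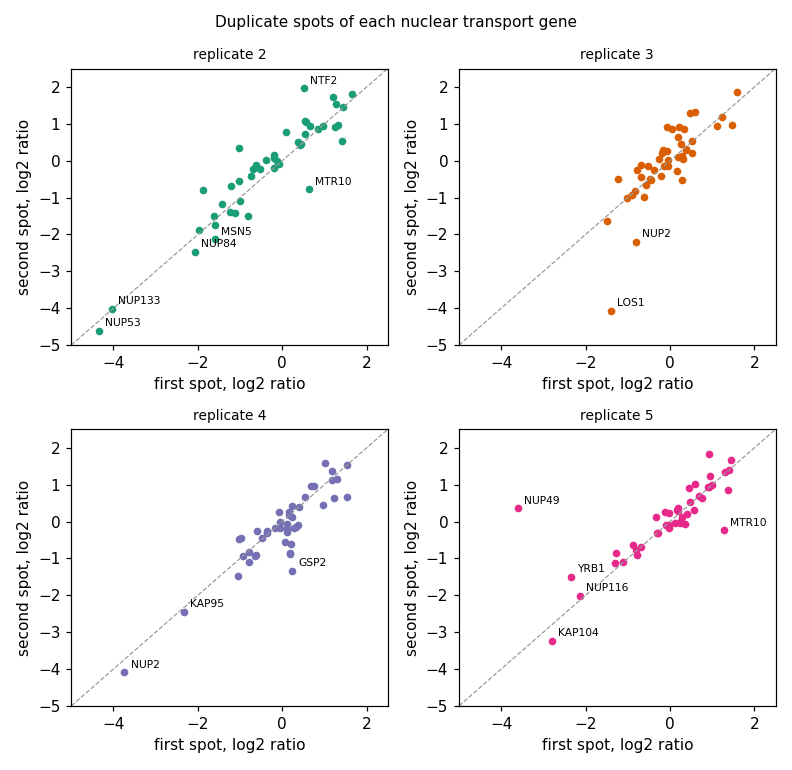
Log2 ratio of the second spot (vertical axis) against the first spot (horizontal axis) of each of the 45 genes on replicates 2 to 5, 1 panel per array, with the line of equal values. Most genes lie along the line, with NUP133 and NUP53 at its low end on replicate 2, and NUP49 on replicate 5 and LOS1 on replicate 3 stand off it.

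The 2 spots of a member were compared within each array of the main platform. Across the 45 genes the duplicate spots correlated with Pearson r of 0.93, 0.80, 0.90 and 0.79 on replicates 2 to 5. This includes duplicates that share 1 value with their surroundings: over the 32, 42, 37 and 30 genes without a shared value r was 0.95, 0.78, 0.90 and 0.76, and over all 45 with the local median removed it was 0.87, 0.71, 0.88 and 0.67. The median difference between the duplicates was 0.31, 0.27, 0.28 and 0.16 log2 units on these arrays. Between arrays the members did not line up, and neither did all genes. Over the same 45 genes r ran from -0.28, between replicates 2 and 4, to 0.16, between replicates 3 and 4. Replicates 3 and 5 of the shared session code had r = 0.03. Over all genes r ran from -0.06, between replicates 1 and 3, to 0.13, between replicates 4 and 5. These correlations are across genes, which share arrays and are not independent replicates. The 3 pairings of replicate 2 with the other arrays of its platform had r of -0.26, -0.28 and -0.03, where all genes had 0.07, -0.03 and 0.00. They leave it unsettled whether replicate 2 is oriented like the rest. Before centring its median was 1.96, while replicates 3 to 5 had medians from -2.81 to -1.45. With the sign of replicate 2 turned, 20 of the 45 means changed sign.

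Gene length did not order the members. The correlation of a member's ratio with the log2 of its gene length in RefSeq was -0.08, 0.08, -0.10 and 0.10 on replicates 2 to 5 (Pearson r over 45 genes).

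Position on the array moved with the values. The local median around a member correlated with the member's own value with r of 0.73, 0.55, 0.50 and 0.65 on replicates 2 to 5, across 45 genes on 1 array each. Of the 45 means, 17 changed sign once the local median was removed. In the outer 3 rows and columns of each block of spots, adjacent spots often held 1 identical deposited value, at 56.0, 15.8, 28.6 and 73.3% of outer spots on replicates 2 to 5 and 0% of inner spots. Such a value may not be the spot's own ratio. It touched 19 of the 45 genes on at least 1 array, and 26 genes on none. For those 19 genes the local median can include neighbours with the identical value. Part of the correlations above, and of the move on removal, can thus be built in. A correlation over the 26 other genes alone is not given here. Genes free of shared values include NUP49, NUP53, NUP133, NSP1, KAP104, SRP1, CRM1, LOS1, GSP1 and RNA1.

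**Figure D4:**
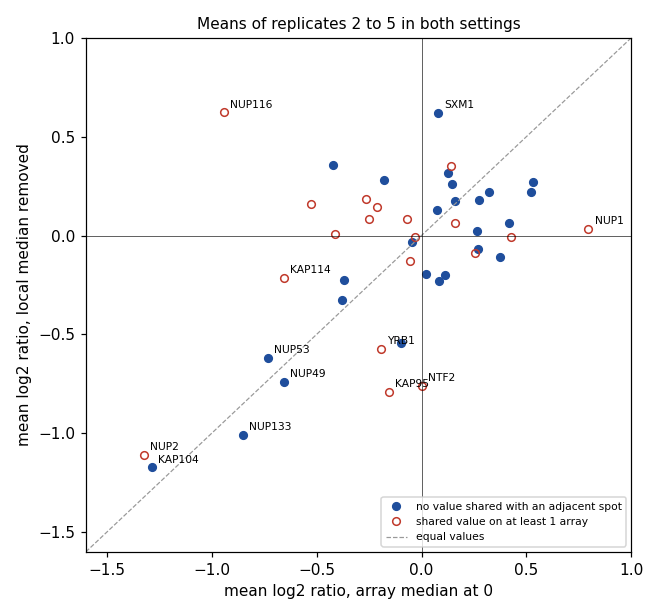
Mean log2 ratio over replicates 2 to 5 with the median of the surrounding spots removed (vertical axis) against the mean with only the array median removed (horizontal axis), for the 45 genes, with open red circles for genes that held a value shared with an adjacent spot on at least 1 array. KAP104, NUP2 and NUP133 stay below -1.0 with the local median removed, while NUP116 turns to 0.62 and NUP1 drops to 0.03.

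A second list of 24 other genes of pore and transport was set beside the members, among them the cytoplasmic filament, the mRNA export receptor and the Ran exchange factor. It had 11 means above 0 and 13 below it, with a median of -0.05, and none passed over all genes in limma. At an unadjusted p under 0.05 there were 4 of the 24 (16.7%), 1 higher and 3 lower, beside 5.42% of all genes, 1.43% higher and 3.99% lower. The list was chosen with earlier results of these data known, so this share is not read as a result about its genes. DBP5, a helicase of the cytoplasmic face, was at -1.70, -0.61, -1.42 and -0.42 on replicates 2 to 5 and at 0.82 on replicate 1. Its mean of -1.04 was -0.03 with the local median removed. ULP1, the SUMO protease held at the pore, was at 1.02, 1.65, 1.05 and -0.04 on replicates 2 to 5 and at 1.27 on replicate 1, with a mean of 0.92, or 0.26 with the local median removed. On 3 of the 4 arrays ULP1 held a shared value, at both spots on replicate 5, so its value is uncertain. Its mean was 1.25 with shared values left out. APQ12, a nuclear envelope membrane gene, was at -0.75, -1.55, -0.15 and -0.91 on replicates 2 to 5 and at 0.12 on replicate 1, and its mean of -0.84 was -0.18 with the local median removed. On 3 of the 4 arrays both spots of APQ12 held values shared with an adjacent spot, so its value is uncertain. SRC1, an inner nuclear membrane gene, was at -2.97, -0.21, -1.47 and -0.97 on replicates 2 to 5 and at 0.97 on replicate 1. Its mean of -1.41 was -1.13 with the local median removed and 0.08 with the sign of replicate 2 turned. The mean joined spots that disagreed. On replicate 5 a pair in one block read -3.02 and -2.82 and a pair in another block 1.17 and 0.78.

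The genes of the tagged proteins were also within their spread. YRA1 was at -0.70, 1.41, 0.20 and -0.01 on replicates 2 to 5 and at -0.53 on replicate 1. MEX67 was at 0.76, -0.03, -1.02 and -0.63 on replicates 2 to 5 and at 0.39 on replicate 1. Spots of MEX67 held shared values on 3 of the 4 arrays of the main platform, and both of its spots did so on 2.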

How the data were processed

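Each array compared RNA of the Yra1 and the Mex67 precipitate. Deposited were log10 ratios, 1 for each spot, a scale inferred from the numbers: among 2000 spots drawn per array, base 10 turned 1.5 to 18.4% into quotients of integers no larger than 3000 (tolerance 1e-09), while base 2 did so for 0.45% or less and base e for 0.55% or less. The labels name neither the numerator nor any background correction or normalization. Array medians of the ratios as deposited differed from 0.

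The log2 ratios, less each array's median, were averaged per gene (2 spots for each member on the platform of 4 arrays). Genes were named from the platform annotation, updated through RefSeq (assembly R64), which matched 11128 of 11138 named spots on that platform. Spots without a name and 1 row whose ID was not a number were left out. Replicates 2 to 5 were tested with limma 3.58.1 (R 4.3.3), lmFit and eBayes, over 5539 genes with at least 3 values, Benjamini-Hochberg adjusted, threshold 0.05. The fit was tested on simulated data. Figures and other values used Python 3.11.15.

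The local median is that of the 5 by 5 window around a spot within its block, without the gene's own spots. Neighbours that hold the same deposited value as the spot stay in the window. The members and lists were chosen with earlier results of these data known. Values on each array are given for members with an unadjusted p under 0.05, up to 6 in each direction with 1 sign on all 4 arrays, the Ran cycle genes, 4 related pairs, NSP1, KAP95, SRP1 and CRM1, for YRA1 and MEX67, and for genes of the second list with an unadjusted p under 0.05; others given in full, such as NUP133, NUP84, NUP2, NUP1 and LOS1, were chosen after their values were seen. Precision is limited by the number of arrays. Ratios hold no measure of signal above background.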

Additional observations from a re-analysis of the deposited data

Results flagged for a closer look

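Dixon's criterion was applied to 46 sets of 4 values, those of the 45 genes and of the shift of the list. In 4 sets 1 array lay far from the other 3. Chance meets the criterion in about 1 of 20 sets when the 4 values are normal with equal spread. The SD over genes was 1.31, 0.77, 0.90 and 1.20 on replicates 2 to 5. The share of all genes that meets the criterion is not given here, so the count is not read as particular to these genes. NUP133 was at -4.02 on replicate 2, with the other 3 arrays between -0.04 and 0.42. NUP60 was at -1.28 on replicate 2, with the others between 0.21 and 0.50. KAP114 was at -1.56 on replicate 3, with the others between -0.46 and -0.30. CSE1 was at 0.95 on replicate 2, with the others between -1.01 and -0.68. Of these, both spots of NUP60 on replicate 2 and all spots of CSE1 held values shared with adjacent spots, and the part of this in the distances was not tested.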

How the results depend on the processing

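None of the 45 genes passed limma's adjusted threshold in any of 16 alternatives, where the smallest adjusted p of a member ran from 0.735 to 0.931. The number at an unadjusted p under 0.05, 1 in the reported setting, was 2 with quantile normalization, 2 with the local median removed, 2 with shared values left out (38 genes left), 4 with replicate 2 turned, 2 with replicate 1 added, 0 with the session averaged, 3 with array weights, 0 with trend and robust moderation, and 0 to 3 without 1 replicate (3 without replicate 2, 0 without replicate 5), and the cause was not tested. For KAP104 the unadjusted p ran from 0.0193 to 0.377 and the mean from -1.74 to -0.62 over these alternatives. The shift of the list stayed between -0.058 and 0.040. The means of 0 to 20 genes changed sign, most with replicate 2 turned (20) and with the local median removed (17). Leaving out replicate 3 keeps only arrays labelled slide 2, and leaving out replicate 2 only arrays labelled scan 4. No paired analysis was possible because the arrays form 1 group. A random session block was not run, because it could not be estimated from 4 arrays in 3 sessions.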
